A study of Mus musculus with 18 samples.

Results

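The comparison set B16F10 mouse melanomas injected with the ribozyme PS473 in a cationic polymer (PS473@CPs, 3 tumors) against B16F10 melanomas injected with phosphate-buffered saline (PBS, 3 tumors). These are 6 of the 18 tumors of the series, which holds 3 tumors in each of 6 groups, and their group was read from the sample titles. B16F10 is a pigmented melanoma line of C57BL/6 origin, and the tumors were raised by injecting 100000 cells in 50 µL subcutaneously into female C57BL/6 mice, on the right flank. The cell number is that of the sample labels, and the paper's methods give another. From day 6, when tumors measured about 50 mm3, each mouse was injected into the tumor every 2 days, and tumors were taken 48 h after the last injection. PS473 is an RNA designed to cut the mRNA of Cd274, the gene for PD-L1, and CPs stands for the cationic polymers that carried it. None of the 6 groups of the series was given the polymer alone or the polymer with the inactive ribozyme M5. Against PBS the polymer and the ribozyme therefore cannot be told apart. The tumors were labelled as separate samples, and the p values measure the spread between them.

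PD-L1 is a surface ligand that restrains T cells through the receptor PD-1, and melanoma cells raise it when interferon reaches them. Pistol ribozymes are small RNAs that fold around a substrate strand and cut it at a GU. An RNA complexed with a cationic polymer enters cells by endocytosis, and RNA in endosomes or cytosol can be read by sensors that switch on interferon-stimulated genes. Amino acid shortage and protein folding stress act through the transcription factor ATF4, which drives a set of amino acid synthesis and transport genes. Genes of each of these routes were read in the 6 tumors.

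The ribozyme and its site are shown because they define the treatment. In PS473 the capitals mark the bases that pair with Cd274 mRNA, and in the site they mark the GU that is cut.
PS473: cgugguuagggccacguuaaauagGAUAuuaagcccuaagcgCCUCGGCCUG
Cd274 site: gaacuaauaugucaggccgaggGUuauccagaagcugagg
The paired arms and the GU span 16 bases, and their G is base 473 of the 873-base coding sequence. In mouse build GRCm38 with the GENCODE M21 annotation they lie at chr19:29380372-29380387 on the plus strand, in exon 4 of the 7 exons of the Cd274 transcript. The form injected into the mice had a longer 3′ arm, which is not printed here.

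Expression was read as FPKM, the fragments per kilobase of gene scaled to the assigned fragments of each tumor, and 12357 of the 41079 genes reached a mean of at least 1 FPKM over all 18 tumors and were tested. A log2 fold change below is the mean log2(FPKM + 1) of the PS473@CPs tumors minus that of the PBS tumors, so it understates changes of weakly expressed genes. Depth recovered from the steps between low values was 19504000 to 20023000 fragments in the PBS tumors and 20167000 to 28401000 in the PS473@CPs tumors, with no overlap. Pigment genes that define the line were high in every tumor. Pmel, a protein of the melanosome matrix, lay between 1084 and 1360 FPKM in the PBS tumors and between 986 and 1583 FPKM in the PS473@CPs tumors, and the groups overlapped. RNA of skin differed widely between tumors of the same group. Krt14, a keratin of the basal epidermis, was at 0, 2058 and 666 FPKM in the 3 PBS tumors and at 0.03, 1756 and 36.3 FPKM in the 3 PS473@CPs tumors. The mean log2(FPKM + 1) of 32 skin and hair genes ran from 0.45 to 5.96 in the PBS tumors and from 0.37 to 6.02 in the PS473@CPs tumors. In whole tumors, fewer cells of a type and less RNA per cell cannot be told apart.

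No gene passed the test. With limma and Benjamini-Hochberg adjustment, 0 of 12357 genes (0%) had an adjusted p under 0.05 and a fold above 2, and the smallest adjusted p was 1 after rounding. At an unadjusted p under 0.05, 111 genes (0.898%) had a higher value in the PS473@CPs tumors and 147 (1.19%) a lower one. Of these, 13 (0.105%) and 11 (0.089%) also passed a fold of 2. In 239 genes (1.93%) every PS473@CPs tumor lay above every PBS tumor, and in 392 genes (3.17%) every one lay below. The median log2 fold change over all genes tested was -0.01, with 5848 genes above 0 and 6509 below. The values that follow describe the 24 genes past both unadjusted limits and the gene lists, and none of them is a call.

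Transcripts of the mitochondrial genome made up 11 of the 13 genes with higher values. Apart from TrnL1, a tRNA gene, they encode core subunits of the respiratory chain and of ATP synthase. ND4L, a subunit of complex I, was at 8.10, 6.85 and 14.7 FPKM in the PBS tumors and at 60.9, 185 and 27.9 FPKM in the PS473@CPs tumors. The groups did not overlap, and 11 of the 12 tumors of the other groups lay below the lowest PS473@CPs tumor. Its log2 fold change was 2.74 (SE 0.51, n = 3 and 3), with the smallest unadjusted p of the comparison (8.14e-05, limma, adjusted p = 1).

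ATP8 and ATP6 encode ATP synthase subunits from overlapping reading frames, so their fragments may be split between them. ATP8 was at 34.4, 24.4 and 47.8 FPKM in the PBS tumors and at 75.9, 1179 and 155 FPKM in the PS473@CPs tumors, a log2 fold change of 2.78 (SE 0.77). ATP6 was at 49.7, 50.7 and 136 FPKM against 199, 2109 and 159 FPKM, a log2 fold change of 2.52 (SE 0.80). PS473@CPs replicate 2 stood far above the others in both genes, and the groups did not overlap in either. COX3, a subunit of cytochrome c oxidase, was at 33.1, 25.6 and 34.2 FPKM against 71.2, 584 and 65.8 FPKM, a log2 fold change of 2.16 (SE 0.66). COX1, the catalytic subunit of the same enzyme, was at 3432, 3120 and 4306 FPKM against 5417, 14856 and 4860 FPKM, a log2 fold change of 1.03 (SE 0.36). Both were higher in every PS473@CPs tumor, COX3 by a wider margin than COX1. COX2 had a log2 fold change of 1.98, but PBS replicate 3 at 115 FPKM lay above PS473@CPs replicate 3 at 106 FPKM.

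**Figure D1:**
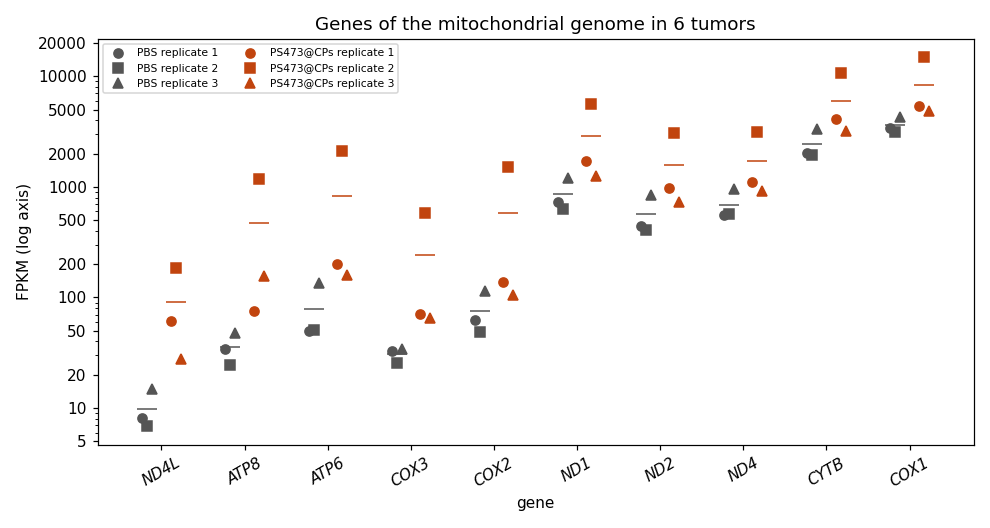
FPKM on a log axis of 10 mitochondrially encoded genes in the 3 PBS tumors (grey) and the 3 PS473@CPs tumors (orange). Each symbol is a tumor and each bar is a group mean. PS473@CPs replicate 2 is the highest tumor for all 10 genes, with COX1 at 14856 FPKM, and the other PS473@CPs tumors lie closer to the PBS tumors.

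All 15 tested genes of the mitochondrial genome had a log2 fold change above 0, against 5848 of 12357 genes in all, with a median of 1.21 against -0.01. At an unadjusted p under 0.05 there were 11, and 8 did not overlap between the groups (1.93% of all genes tested did not overlap in that direction). ND1, another complex I subunit, had a log2 fold change of 1.49 and CYTB, the cytochrome b of complex III, one of 1.13. The ribosomal RNAs mt-Rnr1 and mt-Rnr2 were nearer to 0 in log2 fold change, at 0.77 and 0.76, and both missed the unadjusted limit of 0.05. TrnL1, a leucine tRNA gene of the same genome that the list leaves out, had a log2 fold change of 1.44 (SE 0.58). The 15 genes took 1.03%, 0.949% and 1.499% of the assigned fragments in the PBS tumors and 1.85%, 5.44% and 1.54% in the PS473@CPs tumors. The highest share in any tumor of the other groups was 2.32%. Without PS473@CPs replicate 2 the median log2 fold change of the 15 genes was 0.61, and 8 genes rather than 13 passed both unadjusted limits in the higher direction. Only 5 of the original 13 were among those 8. PS473@CPs replicate 2 also held the most skin and hair RNA of the 6, with a list score of 6.02. PBS replicate 2, with a skin score of 5.96, had the lowest mitochondrial share of the 6 (0.949%). Over the other settings of the fit, among them the skin score as a covariate, the median of the 15 genes ran from 0.71 to 1.38. Beyond these fits, the part of PS473@CPs replicate 2 or of skin RNA in the result was not tested. Copies of mitochondrial sequence in the nuclear genome share these reads, so that single genes are uncertain. The genes of the same complexes that the nucleus encodes, a list of 54 subunits chosen after the mitochondrial values were seen, had a median log2 fold change of 0.05, with 43 above 0 and 11 below.

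The other 2 genes with higher values are read in monocytes and at sites of inflammation. Ccl12, a chemokine that recruits monocytes, was at 1.72, 1.63 and 0.95 FPKM in the PBS tumors and at 2.27, 10.6 and 3.78 FPKM in the PS473@CPs tumors. Ly6c2, a surface protein of inflammatory monocytes, was at 0.42, 0.35 and 0.93 FPKM in the PBS tumors and at 1.36, 1.60 and 5.39 FPKM in the PS473@CPs tumors. Neither gene overlapped between the groups, and different PS473@CPs tumors held the highest value. Their log2 fold changes were 1.23 (SE 0.45) and 1.14 (SE 0.47), with limma adjusted p = 1 for both. In the other 12 tumors, 11 values of Ccl12 and 9 of Ly6c2 were above the highest PBS tumor.

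Of the 11 genes with lower values, 3 belong to red blood cells. Hbb-bs, an adult beta-globin, was at 6668, 447 and 476 FPKM in the PBS tumors and at 17.3, 580 and 45.4 FPKM in the PS473@CPs tumors. Hbb-bt, the other adult beta-globin, was at 954, 42.7 and 54.8 FPKM against 1.44, 63.3 and 3.03 FPKM, and Alas2, the enzyme that starts heme synthesis in erythroid cells, was at 87.4, 6.71 and 11.1 FPKM against 0.38, 6.80 and 0.65 FPKM. In each gene PBS replicate 1 was the highest of the 6, and PS473@CPs replicate 2 lay within the range of the PBS tumors. Log2 fold changes were -3.83 (SE 1.71), -3.95 (SE 1.81) and -2.96 (SE 1.31). The 2 beta-globin genes are near-identical, so the split of reads between them is uncertain. All 10 tested blood genes were below 0, with a median of -1.87 and 0 without overlap (3.17% of all genes tested did not overlap in that direction), and 3 were at an unadjusted p under 0.05 (1.19% of all genes tested in that direction). The median of the list ran from -2.45 to -1.10 with single tumors left out, and the log2 fold change of Hbb-bs was -2.55 without PBS replicate 1 and -5.27 without PS473@CPs replicate 2. Globins took 0.832%, 0.059% and 0.075% of the assigned fragments in the PBS tumors. In the PS473@CPs tumors they took 0.003%, 0.092% and 0.008%, and the groups overlapped.

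Gm4786, which RefSeq lists as a transcribed pseudogene, varied little within each group. It was at 26.3, 23.7 and 21.5 FPKM in the PBS tumors and at 6.18, 5.80 and 5.64 FPKM in the PS473@CPs tumors, a log2 fold change of -1.85 (SE 0.48, limma adjusted p = 1). The 2 groups were far apart and narrow within themselves, but the other 12 tumors spread over the whole interval, from 5.07 to 24.5 FPKM. A fit of the 6 tumors alone called it (adjusted p = 0.0179, limma). Reads of a pseudogene may come from a parent gene of similar sequence. Lce3a, a cornified envelope gene of the epidermis, was at 0, 15.1 and 1.30 FPKM in the PBS tumors and at 0, 0.25 and 0 FPKM in the PS473@CPs tumors, so that 1 tumor carried its difference.

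The last 6 of the lower genes are small noncoding RNA loci. Gm25820 was at 2.73, 3.40 and 2.59 FPKM in the PBS tumors and at 0.77, 0 and 0.41 FPKM in the PS473@CPs tumors, a log2 fold change of -1.52 (SE 0.43). Gm22589 (-1.30), Gm22591 (-1.14), Mir378b (-1.13), Mir7036b (-1.12) and Gm23248 (-1.02) also had every PS473@CPs tumor below every PBS tumor. Over all 514 tested genes shorter than 300 bases, 295 were below 0 and 219 above, with a median log2 fold change of -0.07. In that class 35 genes were lower and 12 higher without overlap (3.17% and 1.93% over all genes tested). Such short loci hold few fragments, and for a miRNA locus the value is that of the locus, not of the mature miRNA.

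The target of the ribozyme did not differ detectably in mRNA. Cd274 was at 21.5, 15.7 and 12.3 FPKM in the PBS tumors and at 11.9, 12.6 and 24.5 FPKM in the PS473@CPs tumors. The lowest and the highest of the 6 tumors were both PS473@CPs tumors. The log2 fold change was -0.06 (SE 0.34), and 2 SE on either side reach from -0.73 to 0.62. A two-sided exact permutation test of the mean log2(FPKM + 1) gave p = 0.9, where 0.1 is the smallest p that 3 tumors against 3 allow. Without PBS replicate 1 the log2 fold change was 0.14 and without PS473@CPs replicate 3 it was -0.37, so its direction turned with single tumors. Among 23 tested genes of the routes that induce PD-L1, 13 were above 0 and 10 below, with a median of 0.06 and 0 at an unadjusted p under 0.05. Socs3, a feedback inhibitor of JAK and STAT signaling, had the widest log2 fold change at 0.64, and Irf1, which switches on the Cd274 promoter under interferon gamma, was at 0.22. Gapdh, used as a reference gene, was at 117, 82.2 and 44.2 FPKM against 82.7, 75.0 and 54.6 FPKM.

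**Figure D2:**
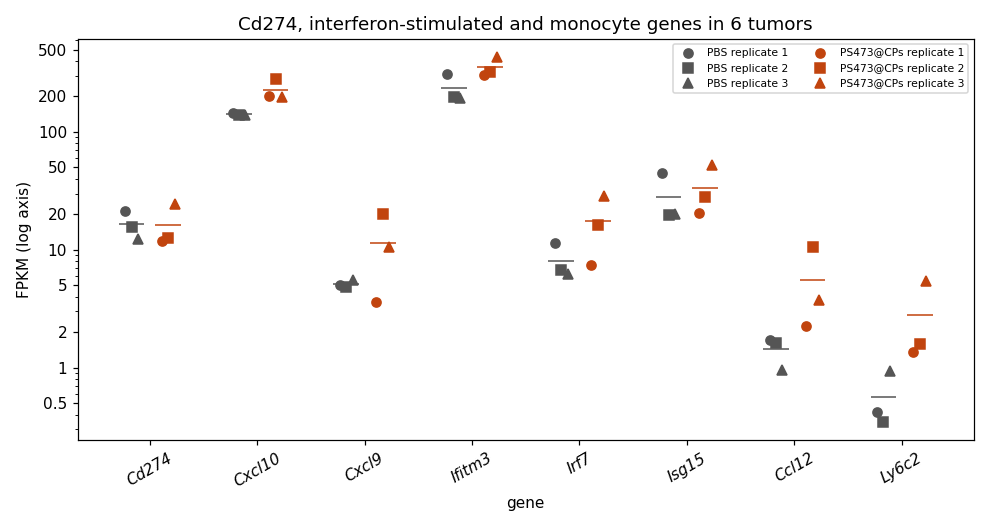
FPKM on a log axis of Cd274, interferon-stimulated genes and monocyte genes in the 3 PBS tumors (grey) and the 3 PS473@CPs tumors (orange), each symbol a tumor and each bar a group mean. Cd274 overlaps, with both the lowest tumor (11.9 FPKM) and the highest (24.5 FPKM) in the PS473@CPs group, while the 3 PS473@CPs tumors lie above the PBS tumors for Cxcl10, Ccl12 and Ly6c2.

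Interferon-stimulated genes lay mostly above 0 by small amounts. Of 70 tested, 66 had a log2 fold change above 0 and 4 below, with a median of 0.28 against -0.01 over all genes. At an unadjusted p under 0.05 there were 2 (0.898% of all genes tested were so in the higher direction). Cxcl10, a chemokine that draws activated T cells, was at 145, 140 and 140 FPKM in the PBS tumors and at 203, 283 and 198 FPKM in the PS473@CPs tumors. All 3 PS473@CPs tumors were above the PBS tumors, whose values lay close together. Of the other 12 tumors, 9 were also above the highest PBS tumor for Cxcl10, and 11 were below the lowest PS473@CPs tumor. The log2 fold change of Cxcl10 was 0.66 (SE 0.29, limma adjusted p = 1). The other was Ifitm3, a membrane protein that blocks virus entry, at 312, 198 and 192 FPKM against 304, 324 and 431 FPKM, named after its values were seen.

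The rest of that list overlapped more. Irf7, the master regulator of type I interferon genes, was at 11.3, 6.67 and 6.24 FPKM in the PBS tumors and at 7.49, 16.4 and 28.6 FPKM in the PS473@CPs tumors. Cxcl9, induced by interferon gamma, was at 4.98, 4.85 and 5.51 FPKM against 3.64, 19.96 and 10.5 FPKM. In both genes PS473@CPs replicate 1 lay within or below the range of the PBS tumors. Isg15, a ubiquitin-like protein, had a log2 fold change of 0.24 and Isg20, an RNA exonuclease, one of -0.52, and both overlapped. Scores of the list, the mean log2(FPKM + 1) of its 70 genes, were 3.63, 3.22 and 3.27 in the PBS tumors and 3.18, 3.58 and 4.19 in the PS473@CPs tumors. PS473@CPs replicate 1 had the lowest score of the 6 and replicate 3 the highest, and without replicate 3 the median of the list dropped to 0.01. Of 29 tested sensors of foreign RNA and DNA and their adaptors, 15 were above 0 and 14 below (median 0.00). Among them Zbp1, a sensor of Z-form nucleic acids, had a log2 fold change of 0.40 and Dhx58, the RIG-I-like receptor LGP2, one of 0.51. Sting1, the adaptor of DNA sensing, Tbk1, the kinase behind it, and Irf3, the factor it activates, had log2 fold changes of 0.07, -0.15 and 0.19, and all 3 overlapped.

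The interferon-stimulated response element, searched on both strands as 2 copies of GAAA with 2 bases between them, was in 28 of the 52 promoters of the list that RefSeq gives (53.8%), against 3.44% of 32851 mouse promoters of 300 bases. The promoter of Cxcl10 holds 1 match to it and 1 to the kappa B motif (GGGA, any base, TT, any base, CC), which 1.20% of promoters hold. Both are in capitals in the sequence at chr5:92348840-92349139 (GRCm38.p6, minus strand), shown because the values of Cxcl10 are given above. Of the 70 genes of the list, 2 were higher with no overlap between the groups, against 1.93% of all genes tested. The share of promoters with the element describes the genes chosen for the list, not their values in these tumors.
Cxcl10 promoter: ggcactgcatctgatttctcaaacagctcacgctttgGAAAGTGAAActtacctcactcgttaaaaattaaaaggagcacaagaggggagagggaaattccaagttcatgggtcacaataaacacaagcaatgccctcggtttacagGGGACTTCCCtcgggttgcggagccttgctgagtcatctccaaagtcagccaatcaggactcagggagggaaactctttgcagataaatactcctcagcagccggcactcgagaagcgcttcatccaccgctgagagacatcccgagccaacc

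Antigen presentation and lymphocyte genes showed the same spread between PS473@CPs tumors. Of 21 MHC class I genes tested, 19 were above 0 (median 0.21), and of 9 MHC class II genes, 7 were (median 0.04), a median that ran from -0.23 to 0.42 and turned without PBS replicate 2, PS473@CPs replicate 2 or PS473@CPs replicate 3. H2-T23, a nonclassical class I molecule, was at 9.70, 15.9 and 15.5 FPKM in the PBS tumors and at 7.33, 40.4 and 29.8 FPKM in the PS473@CPs tumors. Tapbp, which loads peptides on class I, had a log2 fold change of 0.36, and B2m, the class I light chain, one of 0.32. None of these genes reached an unadjusted p of 0.05. Of 42 T and NK cell genes, 9 were tested and all 9 were above 0, with a median of 0.29. Gzmb, the cytotoxic granule protease, was at 1.22, 0.76 and 0.99 FPKM against 0.52, 3.77 and 4.04 FPKM. Trac and Trbc1, constant regions of the T cell receptor, had log2 fold changes of 0.49 and 0.59. PS473@CPs replicates 2 and 3 held the higher values and replicate 1 did not. Cd8a and Cd3e, defining genes of cytotoxic and of all T cells, stayed under the limit for testing, with Cd8a at 0.33, 0.46 and 0.45 FPKM against 0.33, 1.07 and 0.96 FPKM.

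Among the cytokines the study measures, Ifnb1, Il6, Tnf and Ifng were also under the limit. Il6 was at 0.04, 0.43 and 0.32 FPKM in the PBS tumors and at 0.65, 1.58 and 0.56 FPKM in the PS473@CPs tumors. Ifng was at 0.08, 0.19 and 0.32 FPKM against 0.37, 1.20 and 0.23 FPKM. Ifnb1 was at 0.06, 0 and 0.06 FPKM in the PBS tumors and at 0 in all 3 PS473@CPs tumors. Its median in the other 12 tumors was also 0. PS473@CPs replicate 2 was highest for Il6, Tnf and Ifng. Ccl2 and Ccl7, monocyte chemokines next to Ccl12 in function, had log2 fold changes of 0.78 and 0.86, and both missed the unadjusted limit. Over 25 tested inflammatory genes 16 were above 0 (median 0.11), and over 32 macrophage and monocyte genes 23 were (median 0.11). The first median was -0.27 to 0.47 with single tumors left out, turning without PBS replicate 1 or PS473@CPs replicate 2, and the second also turned without PBS replicate 1. Arg1, an arginine-degrading enzyme of tumor macrophages, was at 11.9, 52.5 and 3.29 FPKM against 0.44, 8.84 and 4.34 FPKM. S100a8 and S100a9, calgranulins of neutrophils and of stressed keratinocytes, were high in the tumors rich in skin RNA, S100a8 at 0.38, 252 and 77.9 FPKM against 0, 178 and 0.81 FPKM.

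**Figure D3:**
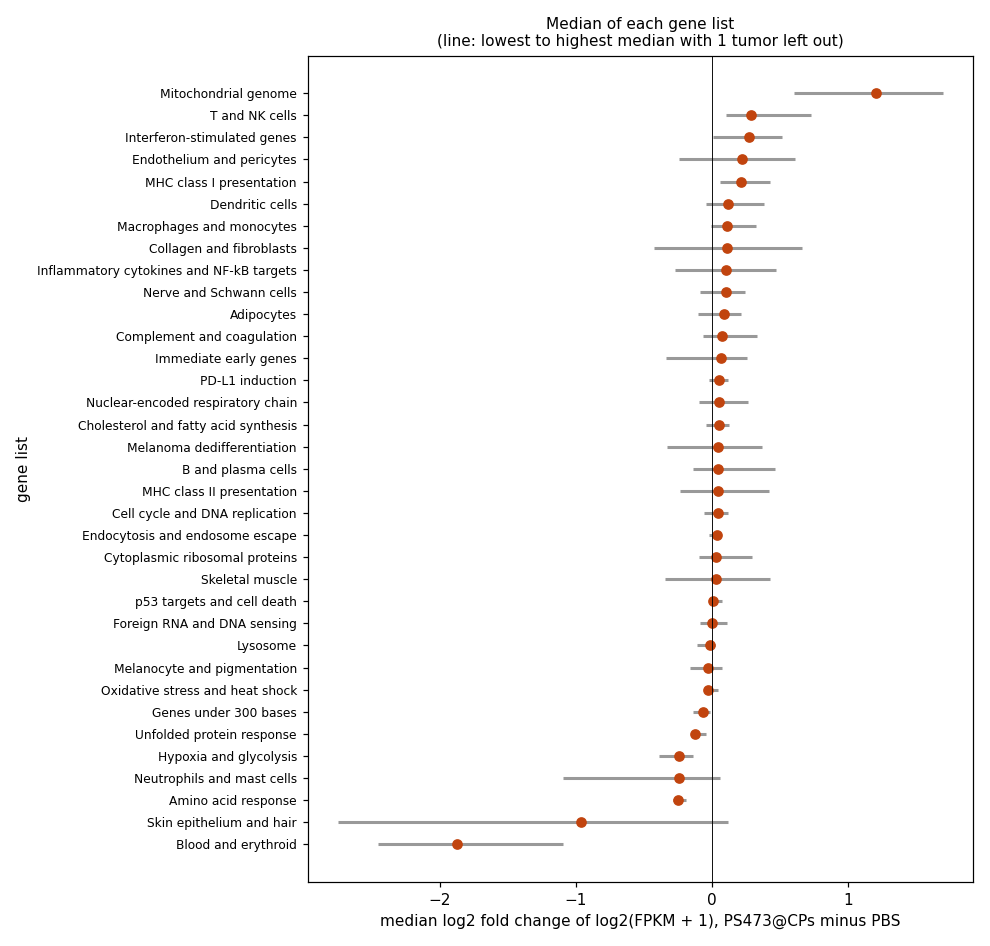
Median log2 fold change (PS473@CPs minus PBS, points) of each gene list, with a line from the lowest to the highest median when 1 tumor is left out. The mitochondrial genome lies highest at 1.21 and blood lowest at -1.87. The skin list runs from -2.75 to 0.12. The amino acid and nuclear respiratory chain lists were chosen after values of these tumors were seen.

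Genes of the response to amino acid shortage lay mostly below 0, and none passed adjustment. Trib3, a pseudokinase that ATF4 induces and that feeds back on it, was at 19.0, 25.2 and 14.8 FPKM in the PBS tumors and at 8.66, 10.4 and 12.1 FPKM in the PS473@CPs tumors. The groups did not overlap, and all 12 tumors of the other groups lay above the highest PS473@CPs tumor, from 15.4 to 36.1 FPKM. Its log2 fold change was -0.84 (SE 0.26, limma adjusted p = 1). Against Free PS473, the ribozyme injected without a carrier, it was -1.14.

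The other genes of that route are named after their values were seen. Gpt2, a mitochondrial alanine aminotransferase, was at 4.07, 4.44 and 3.78 FPKM in the PBS tumors and at 2.21, 2.49 and 2.81 FPKM in the PS473@CPs tumors. Aldh1l2, a mitochondrial folate enzyme, was at 3.70, 7.11 and 3.39 FPKM against 1.94, 2.22 and 2.77 FPKM, below all 12 tumors of the other groups. Asns, which makes asparagine, was at 56.8, 58.6 and 40.1 FPKM against 39.4, 33.4 and 39.5 FPKM. In none of the 3 did the groups overlap, and the spread was smaller among the PS473@CPs tumors for Asns and Aldh1l2. Their log2 fold changes were -0.54 (SE 0.15), -0.74 (SE 0.22) and -0.44 (SE 0.17). Aldh18a1, the first enzyme of proline synthesis, was at -0.42, and Pck2, mitochondrial PEP carboxykinase, at -0.52 with overlap. Chac1, a glutathione-degrading enzyme, was at -0.45 and Atf4 itself at -0.18, and both overlapped.

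A list of 44 genes of this response, also chosen after those values were seen, held 39 tested genes, of which 35 were below 0 and 4 above, with a median log2 fold change of -0.25. Without overlap were 11 of the 39 in the lower direction (3.17% of all genes tested). Because the list was chosen with values of its members known, these counts and its scores describe it and are no test of it. The list score was 4.74, 4.91 and 4.64 in the PBS tumors and 4.46, 4.50 and 4.52 in the PS473@CPs tumors, and 4.56 to 5.06 in the other 12 tumors. All 3 PS473@CPs tumors were thus the lowest of the 18, and the median kept its sign without any of the 6 tumors (-0.29 to -0.19). A low score was not particular to PS473@CPs. The 3 tumors given M5 in a manganese framework (M5@NKMOF-101-[Mn]) had scores of 4.58, 4.56 and 4.61, also below every PBS tumor. The skin scores of the PBS and PS473@CPs tumors were 0.45, 5.96 and 4.74 against 0.37, 6.02 and 1.77. Their blood scores were 7.14, 4.74 and 4.91 against 2.59, 5.16 and 3.19. Over the other settings of the fit, among them the skin score as a covariate, the median of the list ran from -0.27 to -0.21. Beyond these fits, the part of skin or blood RNA in the result was not tested. The C/EBP and ATF response element was searched on both strands as TGATG, any base, AA and any base. It was in 9 of the 27 promoters of the list that RefSeq gives (33.3%) and in 3.95% of all promoters. That share describes the genes chosen for the list, not their values in these tumors. The promoter of Trib3 at chr2:152344011-152344310 (GRCm38.p6, minus strand) holds 1 match, on the reverse strand, in capitals, and is printed because Trib3 was the gene furthest from 0 in the list.
Trib3 promoter: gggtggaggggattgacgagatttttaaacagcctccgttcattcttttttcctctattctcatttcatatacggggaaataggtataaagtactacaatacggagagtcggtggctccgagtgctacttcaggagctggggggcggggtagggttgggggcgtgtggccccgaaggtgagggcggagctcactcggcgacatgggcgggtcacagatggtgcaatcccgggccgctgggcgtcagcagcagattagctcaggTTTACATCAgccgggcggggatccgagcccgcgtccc

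**Figure D4:**
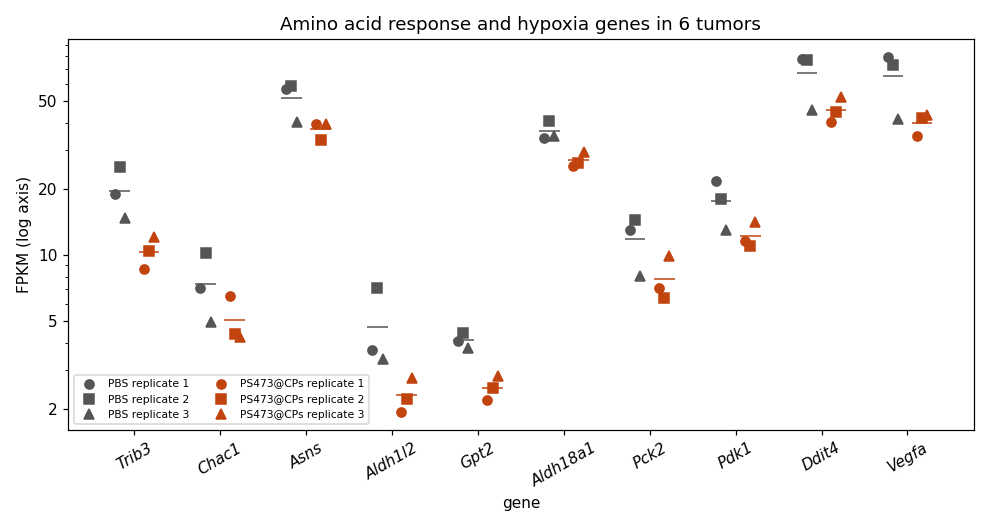
FPKM on a log axis of 10 genes of the amino acid response and of hypoxia in the 3 PBS tumors (grey) and the 3 PS473@CPs tumors (orange), each symbol a tumor and each bar a group mean. Trib3, Asns, Aldh1l2, Gpt2 and Aldh18a1 do not overlap, with Trib3 between 8.66 and 12.1 FPKM in the PS473@CPs tumors. Chac1, Pck2, Pdk1, Ddit4 and Vegfa overlap.

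Protein folding genes were more evenly split. Of 30 tested genes of the unfolded protein response, 19 were below 0 and 11 above (median -0.12). The 2 at an unadjusted p under 0.05 (1.19% of all genes tested in the lower direction) were Trib3 and Asns, which belong to the ATF4 arm. List scores overlapped, at 5.09, 5.24 and 5.14 in the PBS tumors and 5.02, 5.11 and 5.04 in the PS473@CPs tumors. Genes of hypoxia and glycolysis lay mostly below 0, 36 of 37, with a median of -0.24 (6509 of 12357 genes in all were below 0). Mif, a cytokine made under hypoxia, was the exception at 0.06. List scores overlapped, at 6.33, 6.33 and 5.85 in the PBS tumors and 5.70, 5.96 and 6.01 in the PS473@CPs tumors. Of the 37 genes, 1 was lower without overlap, against 3.17% of all genes tested. Vegfa, the angiogenic growth factor, was at 79.9, 73.3 and 41.5 FPKM in the PBS tumors and at 34.9, 41.9 and 43.4 FPKM in the PS473@CPs tumors, a log2 fold change of -0.63 (SE 0.29, limma adjusted p = 1). Pdk1, which diverts pyruvate from the mitochondrion, was at -0.47 (SE 0.17), and these were the 2 genes of the list past the unadjusted limit (1.19% of all genes tested were so in the lower direction). For Vegfa PBS replicate 3 lay with the PS473@CPs tumors, and PBS replicates 1 and 2 stood above. Bnip3, a mitophagy receptor, was at 423, 223 and 127 FPKM against 113, 165 and 171 FPKM. Egln3, an oxygen-sensing hydroxylase, was at 1.96, 24.4 and 5.48 FPKM against 0.49, 12.1 and 1.71 FPKM. Replicate 2 was the highest tumor of each group, and the log2 fold change of -1.07 was -0.22 without PBS replicate 2 and -1.97 without PS473@CPs replicate 2. Ddit4, an inhibitor of mTORC1, had a log2 fold change of -0.51. The median of the list lay between -0.39 and -0.14 with each of the 6 tumors left out.

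**Figure D5:**
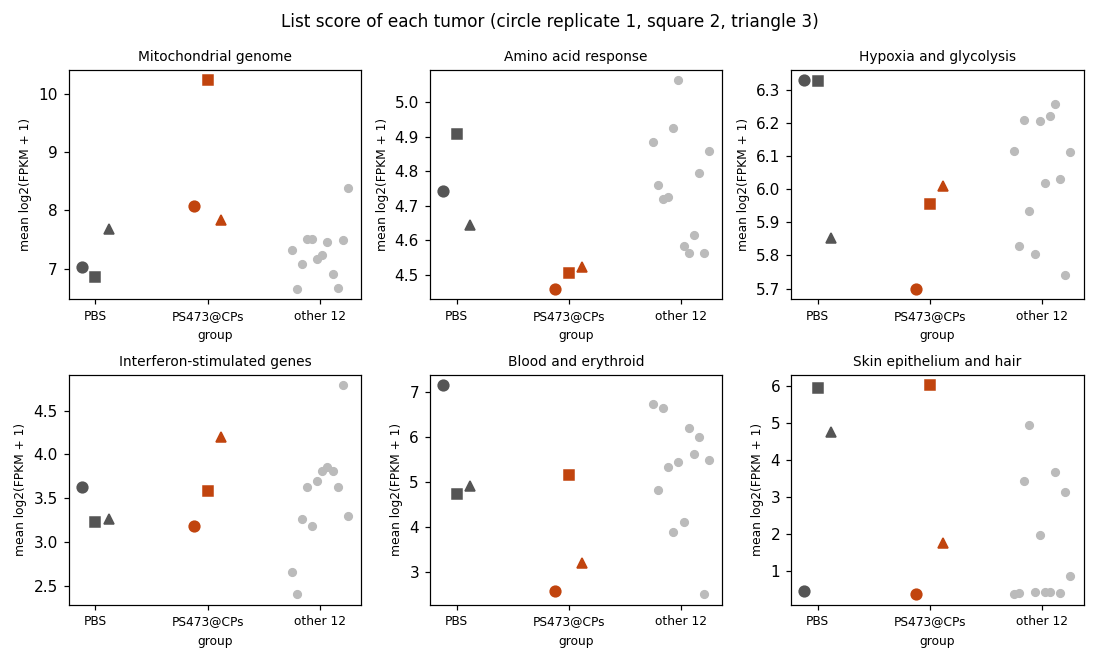
Mean log2(FPKM + 1) of 6 gene lists in each tumor of the PBS group (grey), the PS473@CPs group (orange) and the other 4 groups (light grey), with the symbol giving the replicate. PS473@CPs tumors lie lowest of all tumors for the amino acid response (4.46 to 4.52), and PS473@CPs replicate 2 lies highest for the mitochondrial genome (10.2). The 3 M5@NKMOF-101-[Mn] tumors also lie below every PBS tumor for the amino acid response (4.56 to 4.61). The amino acid list was chosen after values of its members were seen.

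Uptake and degradation genes were near the median of all genes. Over 35 tested genes of endocytosis and endosome escape the median was 0.04, over 33 lysosomal genes -0.02 and over 30 genes of cholesterol and fatty acid synthesis 0.05. Vps4b, an ATPase of the ESCRT machinery, was at -0.19 and Ctsz, a lysosomal protease, at 0.22, both past the unadjusted limit and with limma adjusted p = 1. Mvd, an enzyme of sterol synthesis, did not overlap but missed the unadjusted limit, with a log2 fold change of 0.28. Oxidative stress and heat shock genes had a median of -0.03 over 31 tested. Hmox1, which degrades heme, was at 92.2, 103 and 43.0 FPKM in the PBS tumors and at 29.6, 47.7 and 46.6 FPKM in the PS473@CPs tumors, and PBS replicate 3 lay among the PS473@CPs tumors. Me1, a supplier of NADPH, had a log2 fold change of -0.33 (SE 0.14) and was the gene of the list past the unadjusted limit.

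Tumor cell genes lay near 0. Over 33 pigment genes 14 were above 0 and 19 below (median -0.03), and over 52 cell cycle genes 37 were above 0 and 15 below (median 0.04). Tyr, Dct and Mlana, enzymes and an antigen of the pigment cell, had log2 fold changes of -0.16, -0.17 and 0.22. Vim, an intermediate filament of dedifferentiated melanoma cells and of stroma, was at 1253, 1531 and 1255 FPKM in the PBS tumors and at 1580, 1613 and 1880 FPKM in the PS473@CPs tumors. It did not overlap, with a log2 fold change of 0.33 (SE 0.12), though 11 of the other 12 tumors were above the PBS tumors' highest value. Rpl29, a ribosomal protein, was at 0.21 (SE 0.09) while the 78 ribosomal protein genes had a median of 0.03. Collagen and fibroblast genes had a median of 0.11 (38 tested), endothelial genes 0.22 (22 tested) and complement genes 0.07 (26 tested), where Cfd, the adipocyte protease complement factor D, was at 1.40. In collagen, endothelial and complement genes the direction turned when PBS replicate 1 or PS473@CPs replicate 2 was left out, and the skin list ran from -2.75 to 0.12. Over the 36 lists, the sign of the median turned in 27 when 1 tumor or another was left out.

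Against Free PS473, which shares the PS473@CPs tumors with the comparison above, 0 of 12357 genes (0%) were called by limma with Benjamini-Hochberg adjustment, with a smallest adjusted p of 0.877. Both unadjusted limits were passed by 75 genes (0.607%) with higher values in PS473@CPs and by 17 (0.138%) with lower ones. For ND4L the log2 fold change was 2.74 against PBS and 2.59 against Free PS473, and for ATP8 it was 2.78 and 2.66. Interferon-stimulated genes had a median of 0.28 against PBS and 0.83 against Free PS473, and MHC class I genes 0.21 and 0.83. In replicate order, the Free PS473 tumors had interferon list scores of 2.66, 2.40 and 3.26. Their MHC class I scores were 4.98, 4.88 and 5.77. In both lists all but the last lay below every tumor of the other groups. The part of these low tumors in the medians was not tested. Blood genes had a median of -1.87 against PBS and -2.50 against Free PS473. Gm4786 was at -1.85 against PBS and at -0.50 against Free PS473, and Ifitm3 at 0.61 and 1.39.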

How the data were processed

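Poly(A) RNA of 18 tumors was sequenced, and the authors deposited FPKM values for 41079 genes with gene lengths. The submitters' notes name GRCm39, and the aligner and counting tool are not given in the sources used here. Tumors were grouped by their titles, and 1 group is titled with NKMOF-102 where its treatment text gives 101. The number of unused sample columns was 0. About 47.4% to 49.7% of low values in the 6 tumors were whole fragments (tolerance 0.02), so no count model was used. Values were fitted as log2(FPKM + 1) with limma 3.58.1 in R 4.3.3 (6 group means over 18 tumors, trend in the prior variance, Benjamini-Hochberg), and tested on simulated data. Genes named were those of the study, those past p under 0.05 and a fold above 2, the 3 largest log2 fold changes of each list, and 4 pigment genes, while genes outside this rule were chosen after their values were seen, as were the amino acid and nuclear respiratory chain lists. The members and lists were chosen with earlier results of these data known. Some genes that the rule gives are not reported here. Promoters came from RefSeq (GRCm38.p6). Alternatives are listed in the closing section.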

Additional observations from a re-analysis of the deposited data

How the results depend on the processing

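With 3 tumors in each group, single tumors moved many values. Leaving out each tumor in turn gave 0 to 1 genes called (ND4L without PS473@CPs replicate 3, adjusted p = 0.0396, limma), 6 to 27 genes higher and 9 to 70 lower past both unadjusted limits, and a log2 fold change of Cd274 from -0.37 to 0.14. The largest moves were 70 lower genes without PS473@CPs replicate 2, 51 without PBS replicate 1, 6 higher genes without PBS replicate 2 and 27 without PS473@CPs replicate 1. The 6 tumors fitted alone gave 1 gene called and 8 higher, the skin score as a covariate 22 higher and 17 lower, and array weights 79 lower, a Cd274 log2 fold change of 0.27 and 1 gene called against Free PS473. The causes were not tested. The replicate block left 7 lower genes. Deviations of tumors with the same replicate number correlated at 0.66, 0.72 and -0.09, and replicate 3 correlated best with another number, so that the numbers were not taken as pairs. The other settings (no filter, a filter at 0.1 FPKM, a pseudocount of 0.1, quantile normalization, upper-quartile scaling, no trend) and, added after seeing the data, leaving the mitochondrial genes out of the total gave 0 genes called, 13 to 16 higher, 11 to 15 lower and the same direction for Cd274. Of the genes named, array weights turned Gapdh (0.10) and Pmel (0.056), and the skin covariate turned Krt14 (0.47). Leaving out tumors moved Mif from -0.014 to 0.13, Gapdh from -0.49 to 0.21, Zbp1 from -0.14 to 0.97, Isg15 from -0.12 to 0.62, Pmel from -0.27 to 0.069, Sting1 from -0.056 to 0.19 and Krt14 from -4.85 to 1.20.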
